A study of Mus musculus with 23 samples.

Results

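The genes described here are 9 that take part in the recycling of iron by macrophages, listed by symbol: Spic, Hmox1, Slc40a1, Fth1, Ftl1, Tfrc, Slc11a1, Slc11a2 and Lcn2. Of these, 8 had a probe set with 1 gene symbol and were among the 19938 genes tested, and Slc11a1 had none and is named only. The rule took the probe set of highest mean over the 23 arrays for each gene, but each of the 8 genes had just 1, so that mean decided nothing. The members were thus chosen by symbol, with earlier results of these arrays known, and the tests below are not independent of that choice.

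RNA came from macrophages grown from bone marrow of wild-type C57BL/6 mice over 6 days in the growth factor M-CSF (10 ng/mL). It was then withdrawn, treatment followed 1 to 3 days later, and all 6 groups shared this preparation. Stearic acid (SA, saturated) and oleic acid (OA, with 1 double bond) were each given at 250 µM, bound to fatty acid-free albumin, for 5 h or 20 h (n = 4 arrays in each of the 4 groups). Albumin alone at 125 µM was the vehicle (n = 3), and lipopolysaccharide (LPS, a bacterial cell wall component) at 1 ng/mL was the positive control (n = 4). No albumin dose is recorded for the LPS group, so whether LPS and vehicle also differ in albumin is not known. Vehicle and LPS lasted 5 h by the labels of the samples and 4 h by the series text, and no vehicle at 20 h was analysed here. The labels speak of replicate wells and the series text of biological replicates, so p-values here reflect only how far these samples scatter, and that scatter may be technical.

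Macrophages of the spleen's red pulp and the liver take up aged red blood cells and return their iron to the blood. Haem oxygenase opens the haem ring and frees the iron, which is then stored in ferritin or leaves the cell through ferroportin. Spi-C, the product of Spic, is a transcription factor of the ETS family that red pulp macrophages need, and haem is known to induce it. Iron also enters macrophages on transferrin through the transferrin receptor, and in inflammation cells hold iron back from microbes.

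Spic and Lcn2 both rose with LPS while only Spic was higher under SA at 5 h, so the stretch of 250 bases before the start of each gene is shown, from RefSeq on GRCm38.p6. The promoter table had entries for 6 of the 9 genes. The Spic window is on the minus strand of chromosome 10 (chr10:88683024-88683273) and the Lcn2 window on the minus strand of chromosome 2 (chr2:32387740-32387989). Capitals mark the motif matches found.
Spic: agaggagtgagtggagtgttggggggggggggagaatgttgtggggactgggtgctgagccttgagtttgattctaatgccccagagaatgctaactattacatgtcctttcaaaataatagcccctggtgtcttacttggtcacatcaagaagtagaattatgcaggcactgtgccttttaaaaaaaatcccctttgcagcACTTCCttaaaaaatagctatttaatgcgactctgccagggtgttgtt
Lcn2: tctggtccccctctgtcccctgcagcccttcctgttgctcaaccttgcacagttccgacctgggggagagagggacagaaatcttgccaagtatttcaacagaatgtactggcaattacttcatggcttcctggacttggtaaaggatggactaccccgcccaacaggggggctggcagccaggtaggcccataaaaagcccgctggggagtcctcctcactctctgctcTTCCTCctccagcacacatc
The Spic window held 1 match to the ETS core GGAAGT, on the other strand as ACTTCC, 48 to 43 bases before the start. The Lcn2 window held 1 match to the PU box GAGGAA, also on the other strand, as TTCCTC, 20 to 15 bases before the start. Of 32851 promoter windows of this length, 19.7% held GGAAGT and 23.3% held GAGGAA on either strand. The AP-1 motif TGANTCA (6.75% of windows), the antioxidant response element core TGACNNNGC (10.2%) and TATAAA (12.4%) were also searched on both strands. None of those letters was in either window. The motifs overlap in part (GAGGAA can run into GGAAGT), and a match describes letters and not a bound site. Windows not shown held matches too. A window of Tfrc, which fell with LPS, held GGAAGT 218 to 213 bases before the start. That of Slc11a1 held GAGGAA (152 to 147), and an Fth1 window held TATAAA on the other strand (124 to 119). The windows shown were picked by the levels of their genes, and whether a motif goes with a level was not tested.

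All values are log2 expression, so a difference of 1 is a doubling of signal, and levels are compared within a gene and never between genes. The median over the tested genes was 4.25. Of the macrophage markers, 10 of 11 were measured and their mean was between 8.58 and 9.81 on every array, with none of the 10 under the median of tested genes. Markers of B cells, which also use Spic, and of T cells, erythroid, dendritic, mast and stromal cells had list means of at most 3.70 on every array. The B cell marker Cd79b nevertheless lay above the median of tested genes in every group, with group means of 4.49 (5 h SA) to 5.25 (5 h OA). It was lower under SA than OA at 5 h (-0.76, limma adjusted p = 0.000285). Of the 6 B cell markers measured, it alone fell and 0 rose there, beside 2.37% and 3.3% of all genes. The median difference over the 6 was -0.02. The part of B cells in the Spic values was not tested. Other markers above the median of tested genes in every group were Ccr7, Col1a1 and Col1a2. The array of replicate 2 of 20 h SA stood apart, with gene deviations from its group of SD 0.22 against 0.15 to 0.16 for the other 3, and counts and calls are also given without it where they change.

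Spic, Hmox1, the exporter Slc40a1 and the importer Slc11a2 were higher under SA than under OA at 5 h, 4 of 8 genes past the limma test (adjusted p under 0.05, Benjamini-Hochberg over 19938 genes). Of all tested genes 5.67% passed it, 3.3% higher and 2.37% lower under SA. None of the 8 fell, and 1, Tfrc, was lower at an unadjusted p under 0.05. The median difference over the 8 genes was 0.32, and over all genes 0.01. At 20 h, Spic, Hmox1 and Slc11a2 were higher and Tfrc lower under SA, 4 of 8 genes against 16.7% of all genes (7.72% higher and 8.95% lower). Without replicate 2 of 20 h SA, 4 of 8 passed as well.

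**Figure D1:**
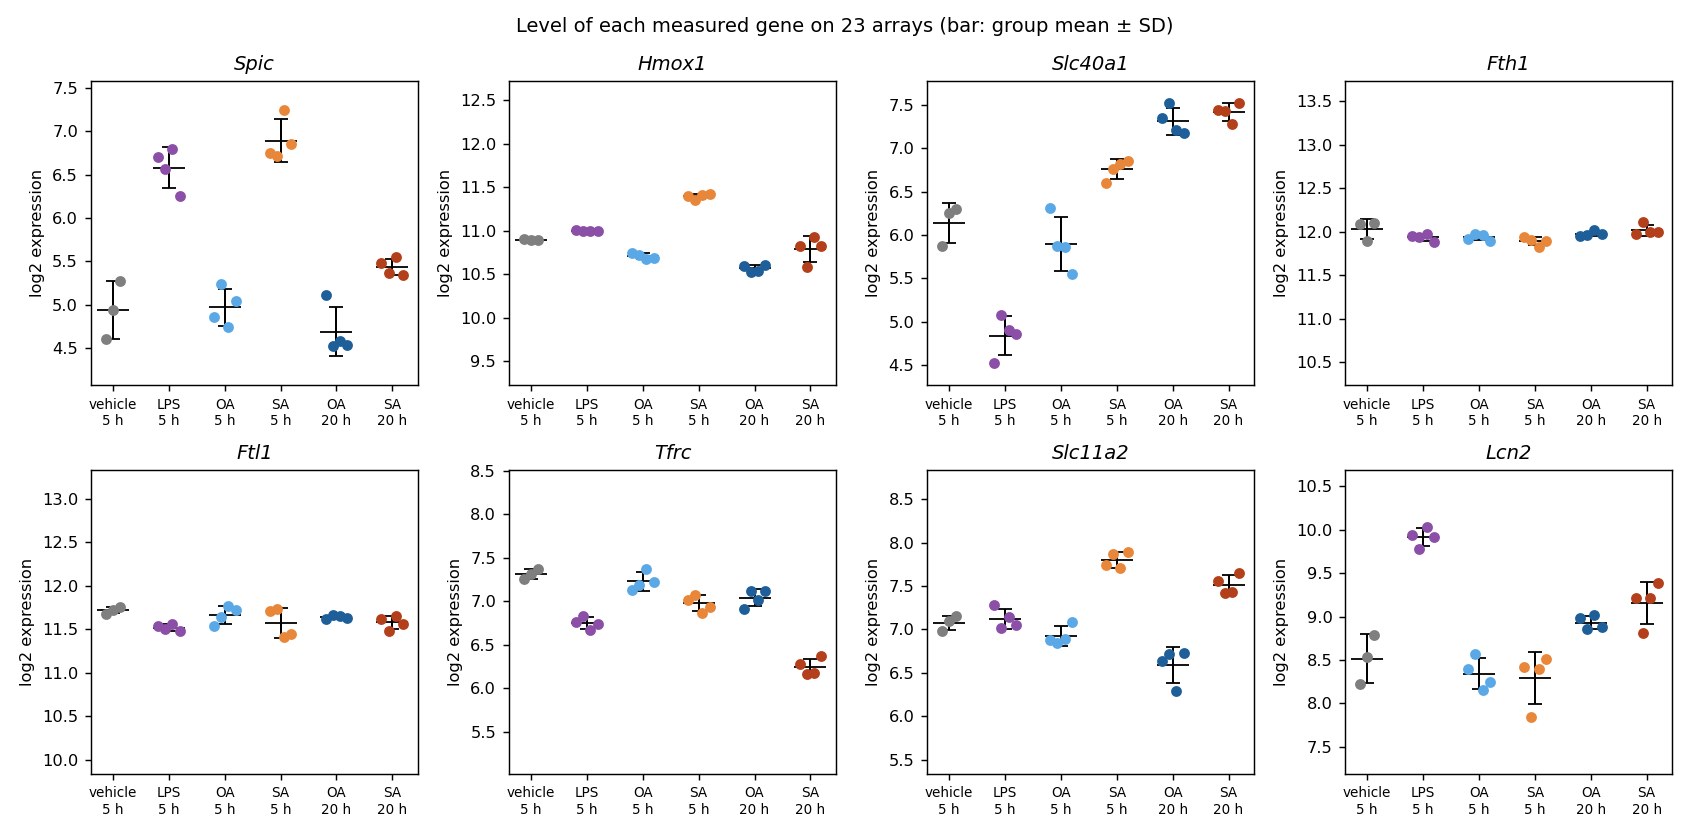
Log2 expression of the 8 measured genes on each of the 23 arrays, 1 panel a gene, with the 6 groups along the x axis and bars for the group mean ± SD; the panels start at different levels. Spic stands highest under LPS and SA at 5 h, Slc40a1 lowest under LPS and highest at 20 h, and Fth1 and Ftl1 lie nearly flat.

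Spic stood at 6.74, 6.71, 7.25 and 6.85 on the 5 h SA arrays and at 4.86, 5.24, 4.75 and 5.04 on the 5 h OA arrays. The vehicle arrays read 4.61, 4.94 and 5.27, and the LPS arrays 6.70, 6.57, 6.79 and 6.26. Every SA and LPS array thus lay above every OA and vehicle array, and SA and LPS overlapped. Because Spic was listed with results known, its comparisons that use the 5 h SA arrays are given as descriptions with no p, and its place in the counts of genes past the test is no support for them. Which values led to that listing is not recorded, so the p-values of its other comparisons are not independent of the listing either. Its level under 5 h SA was higher by 1.92 over OA (95% interval 1.59 to 2.24), or 3.77-fold, rank 5 among rises of 19938 genes, and 1.95 over vehicle (1.60 to 2.30), rank 2.

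LPS raised Spic by 1.64 ± 0.17 (SE) over vehicle (limma adjusted p = 3.44e-08). SA and LPS at 5 h differed by 0.31, with a 95% interval of -0.01 to 0.63, which includes 0 and does not show that they act alike. OA left Spic 0.03 above vehicle (-0.32 to 0.38, limma adjusted p = 0.996).

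At 20 h the SA arrays read 5.48, 5.37, 5.54 and 5.35 and the OA arrays 5.12, 4.52, 4.59 and 4.54. The SA arrays were all above the OA arrays, but far below their own 5 h level. Spic was 0.74 ± 0.16 (SE) higher under SA than OA (limma adjusted p = 0.00104), and its mean under SA was 1.45 lower at 20 h than at 5 h (-1.45, 95% interval -1.78 to -1.13). In bulk samples, less RNA per cell and fewer cells that carry a transcript cannot be told apart. Of the 10 macrophage markers, 3 fell and 0 rose under SA against OA at 5 h, beside 2.37% and 3.3% of all genes. At 20 h 9 of them fell with a median of -0.85, beside 8.95% of all genes. The part of these markers in the differences between the acids was not tested. The SA minus OA difference was 1.17 smaller at 20 h than at 5 h (-1.17, 95% interval -1.63 to -0.72). Against the 5 h vehicle, a comparison that joins treatment and time, 20 h SA was 0.49 higher (limma adjusted p = 0.0479). That call was lost when any of 6 of the 7 arrays involved was left out, reaching 0.33 without vehicle replicate 1 (adjusted p = 0.305, range 0.0148 to 0.305 over the alternatives).

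By group mean ± SD, Spic ran from 6.89 ± 0.25 (5 h SA) through 6.58 ± 0.23 (LPS), 5.43 ± 0.09 (20 h SA), 4.97 ± 0.21 (5 h OA) and 4.94 ± 0.33 (vehicle, n = 3) to 4.69 ± 0.29 (20 h OA), with n = 4 elsewhere. Of the neighbours in this order, LPS and 20 h SA were separated (1.15, limma adjusted p = 1.86e-06), as were 20 h SA and 5 h OA (0.46, limma adjusted p = 0.0396). The other 3 neighbouring pairs were not, where that of 5 h SA and LPS is a description only. Neither separated pair was fitted under the other settings. The pairs follow the order of these same means, and neighbours of different times, here and for the genes below, join treatment and time.

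Hmox1 encodes haem oxygenase 1, the inducible enzyme that breaks haem into iron, carbon monoxide and biliverdin. It read 11.40, 11.36, 11.41 and 11.42 under 5 h SA, against 10.91, 10.89 and 10.90 under vehicle. OA arrays at 5 h read 10.75, 10.72, 10.67 and 10.68, and LPS arrays 11.01, 10.99, 11.00 and 10.99. The SA arrays stood above all others, the LPS arrays above the vehicle arrays, and the OA arrays below the vehicle arrays. SA exceeded OA by 0.69 ± 0.07 (SE), 1.61-fold (limma adjusted p = 3.05e-07), and vehicle by 0.50 (limma adjusted p = 0.000183), while LPS differed from vehicle by 0.10 (-0.06 to 0.26, limma adjusted p = 0.434).

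Hmox1 then fell by 0.61 between 5 h and 20 h of SA (limma adjusted p = 7.85e-07). The 20 h SA arrays read 10.82, 10.58, 10.93 and 10.82 and the OA arrays 10.59, 10.52, 10.54 and 10.61, so the groups overlapped at replicate 2 of SA. The difference was 0.22 (limma adjusted p = 0.0307), and 0.29 without that array (adjusted p = 0.00219, range 0.000718 to 0.146 over the alternatives). It missed the threshold when any of 6 of the 8 arrays was left out, with median centring (0.0592) and with a fit of the compared arrays alone (0.146). The SA minus OA difference shrank by 0.47 from 5 h to 20 h (-0.47, limma interaction adjusted p = 0.00443). In the order of group means, 5 h SA (11.40 ± 0.03) stood apart from LPS (11.00 ± 0.01), and no later neighbours were separated: vehicle (10.90 ± 0.01), 20 h SA (10.79 ± 0.15), 5 h OA (10.71 ± 0.03) and 20 h OA (10.57 ± 0.04), as mean ± SD. Against the 5 h vehicle, 20 h OA was lower (-0.33, limma adjusted p = 0.00906).

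Slc40a1 encodes ferroportin, the exporter of iron that the hormone hepcidin removes from the membrane. It passed the limma test (adjusted p under 0.05) in more comparisons than any other member, 9 of 11. At an unadjusted p under 0.05 Slc40a1 passed in 9 and Tfrc in 10. SA arrays at 5 h read 6.59, 6.76, 6.82 and 6.86, and OA arrays 6.30, 5.87, 5.86 and 5.55. Vehicle arrays read 5.87, 6.25 and 6.29, and LPS arrays 4.53, 5.08, 4.90 and 4.86. SA thus stood above, and LPS below, every other array of that time, with OA and vehicle overlapping.

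Slc40a1 was 0.86 ± 0.14 (SE) higher under SA than OA at 5 h, 1.82-fold (limma adjusted p = 0.000129), and 0.62 higher than under vehicle (limma adjusted p = 0.0151; without vehicle replicate 1, 0.49 and 0.143, range 0.00337 to 0.143). LPS lowered it by 1.30 (-1.30 ± 0.15 SE, limma adjusted p = 1.6e-07), so SA and LPS differed by 1.92 (limma adjusted p = 3.65e-11). The same LPS arrays had raised Spic. At 20 h the 4 OA arrays (7.35, 7.52, 7.21 and 7.17) and the 4 SA arrays (7.44, 7.43, 7.27 and 7.52) overlapped, a difference of 0.10 (-0.18 to 0.38, limma adjusted p = 0.729). Under OA the gene rose by 1.41 between the times (limma adjusted p = 1.46e-07, rank 2 of 19938 rises) and under SA by 0.66 (limma adjusted p = 0.00116). The SA minus OA difference fell by 0.76 from 5 h to 20 h (-0.76, limma interaction adjusted p = 0.0167). Against the 5 h vehicle the 20 h arrays were 1.28 (SA, limma adjusted p = 3.65e-07) and 1.17 (OA, limma adjusted p = 6.91e-06) higher. Both 20 h groups stood first in the order of means, at 7.41 ± 0.10 (SA) and 7.31 ± 0.16 (OA, mean ± SD, n = 4), and were not separated from each other.

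Fth1 and Ftl1 encode the heavy and light chains of ferritin, whose shell stores iron. Fth1 means lay between 11.89 and 12.03 and Ftl1 means between 11.52 and 11.72 over the 6 groups. Their means over the 23 arrays stood at percentiles 99.97 (Fth1) and 99.89 (Ftl1) of tested genes, where the highest value was 12.9. How far the arrays can show a rise at such levels was not tested. In none of the 11 comparisons did either pass the limma test. Fth1 was 0.13 higher at 20 h than at 5 h of SA, all arrays above (limma adjusted p = 0.279, range 0.0377 to 0.5). At an unadjusted p under 0.05 Fth1 passed in 0 and Ftl1 in 1, LPS against vehicle (-0.20, limma adjusted p = 0.114, range 0.0142 to 0.369). For SA against OA at 5 h the 95% interval was -0.19 to 0.09 for Fth1 and -0.26 to 0.08 for Ftl1. Both genes have near-identical pseudogene copies, and 4 further probe sets list Ftl1 among several symbols and were not used. The ferritin genes are controlled in large part at translation, which these arrays do not measure.

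Tfrc encodes the transferrin receptor, which carries iron-laden transferrin into the cell. Its 20 h SA arrays read 6.28, 6.16, 6.18 and 6.36 and its 20 h OA arrays 6.91, 7.12, 7.01 and 7.12. The SA arrays lay below those of every other group. SA was 0.79 lower than OA at 20 h (-0.79 ± 0.08 SE, 1.74-fold, limma adjusted p = 3.73e-08), -1.07 from the 5 h vehicle (limma adjusted p = 1.15e-09) and -0.73 from its own 5 h level (limma adjusted p = 2.5e-07). Of the 10 macrophage markers, 9 fell in the first of these comparisons (8.95% of all genes) and 8 fell against the 5 h vehicle (8.02%). Against 5 h SA 7 fell (6.57%) and 1, Mertk, rose (6.23%). Cd68 did not pass in any of these comparisons. The part of these markers was not tested.

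At 5 h Tfrc was -0.25 from OA under SA (limma adjusted p = 0.0665, range 0.04 to 0.226), and the difference grew to 20 h by -0.54 (limma interaction adjusted p = 0.00301). LPS lowered Tfrc by 0.56 (-0.56, limma adjusted p = 1.68e-05) and SA by 0.34 against vehicle (-0.34, limma adjusted p = 0.0257), a call that was lost in 5 of 7 fits without 1 array (range over alternatives 0.00956 to 0.135), among them each of the 3 vehicle arrays. SA was 0.22 above LPS (limma adjusted p = 0.0465), which was lost in 6 of 8 such fits and with the replicate block (0.0583, range 0.0289 to 0.207). By group mean ± SD, Tfrc went from 7.31 ± 0.06 (vehicle) through 7.23 ± 0.11 (5 h OA), 7.04 ± 0.10 (20 h OA), 6.98 ± 0.09 (5 h SA) and 6.75 ± 0.07 (LPS) to 6.25 ± 0.09 (20 h SA). Neighbours among the first 4 groups were not separated, 5 h SA lay above LPS as given, and the last was 0.51 below LPS (limma adjusted p = 1.61e-05).

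Slc11a2 encodes DMT1, which moves ferrous iron out of endosomes into the cytosol. At 5 h the SA arrays read 7.74, 7.87, 7.71 and 7.89 and the OA arrays 6.88, 6.85, 6.89 and 7.09. At 20 h the SA arrays read 7.56, 7.42, 7.43 and 7.65 and the OA arrays 6.64, 6.71, 6.29 and 6.73. At both times all SA arrays lay above all OA arrays. Vehicle arrays read 6.99, 7.09 and 7.15 and LPS arrays 7.28, 7.02, 7.14 and 7.06, between the acids at 20 h and overlapping 5 h OA. In the order of means, 5 h SA (7.80 ± 0.09, SD) and 20 h SA (7.51 ± 0.11) were not separated, and 20 h SA stood 0.39 above LPS (limma adjusted p = 0.00256). The rest, LPS, vehicle, 5 h OA and 20 h OA, were not separated from their neighbours.

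The difference was 0.88 ± 0.10 (SE) at 5 h (limma adjusted p = 8.86e-07) and 0.92 ± 0.10 at 20 h (limma adjusted p = 7.79e-08). Their change between the times was 0.05 (-0.24 to 0.33, limma interaction adjusted p = 0.941). Slc11a2 did not pass with LPS (0.04, -0.17 to 0.26, limma adjusted p = 0.837), and SA exceeded LPS by 0.68 (limma adjusted p = 5.86e-06). Under 20 h OA it stood 0.49 below the 5 h vehicle (-0.49, limma adjusted p = 0.00463), and under SA 0.44 above it (limma adjusted p = 0.0039). Both 5 h to 20 h differences lay near the threshold (SA -0.29, limma adjusted p = 0.0544, range 0.0246 to 0.14, and OA -0.33, adjusted p = 0.0507, range 0.0148 to 0.21).

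Lcn2 encodes lipocalin 2, which binds bacterial iron carriers. LPS arrays read 9.94, 9.78, 10.03 and 9.91 and vehicle arrays 8.22, 8.54 and 8.78, so the groups lay apart. SA arrays at 5 h read 8.42, 7.85, 8.40 and 8.51 and OA arrays 8.40, 8.57, 8.16 and 8.25, in the range of vehicle or lower. LPS raised it by 1.40 ± 0.15 (SE), 2.64-fold (limma adjusted p = 7.98e-08). Neither fatty acid passed against vehicle at 5 h (SA -0.22, adjusted p = 0.603, and OA -0.17, adjusted p = 0.954, limma), and SA lay 1.62 below LPS (-1.62, limma adjusted p = 1.59e-09).

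At 20 h the SA arrays read 9.21, 8.81, 9.21 and 9.39 and the OA arrays 8.98, 8.85, 9.01 and 8.88, which overlapped (difference 0.22, -0.07 to 0.52, limma adjusted p = 0.359). Lcn2 rose between 5 h and 20 h of SA by 0.86 (limma adjusted p = 7.93e-05) and of OA by 0.59 (limma adjusted p = 0.0129), the second lost without 5 h OA replicate 3 (0.53, adjusted p = 0.0571, range 0.00375 to 0.0571). Of 10 neutrophil markers, 8 lay above the median of tested genes, and Elane and Ly6g lay below it in all 6 groups. The mean over the 10 was 6.50 to 6.81 on the vehicle arrays, 6.74 to 6.93 with LPS, 6.18 to 6.55 at 5 h of SA and 6.68 to 6.90 at 20 h of SA, and 6.48 to 6.75 and 6.87 to 6.98 at 5 h and 20 h of OA. With LPS 3 of the 10 rose (9.22% of all genes), over time under SA 5 rose (6.23%), and under OA 2 rose (2.58%). Under SA against LPS 7 of the 10 fell (9.11% of all genes) and 0 rose (13%), with a median of -0.42. Ltf, the iron-binding protein lactoferrin, was among those that rose in each of the first 3 comparisons, with 0.51, 1.01 and 0.72. The part of such cells in the Lcn2 values was not tested.

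**Figure D2:**
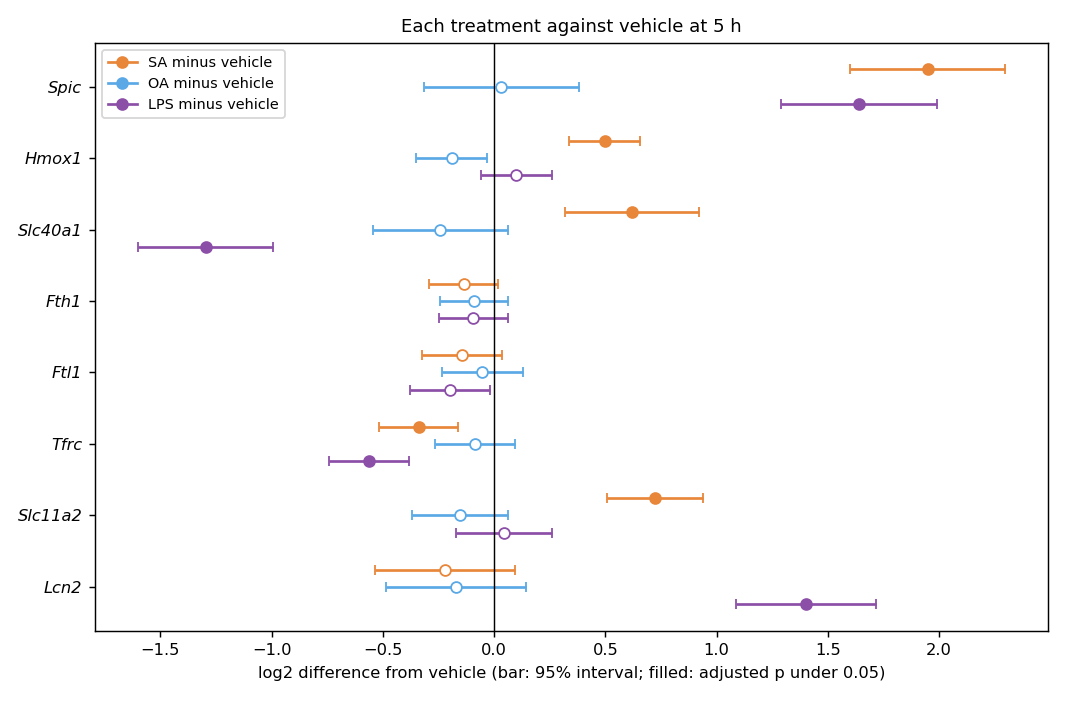
Log2 difference of 5 h SA, OA and LPS from vehicle for each gene, with the 95% interval as the bar and filled points for limma adjusted p under 0.05. Slc40a1 lies on opposite sides for SA and LPS, Lcn2 moved with LPS alone of the 3 treatments, and no OA point is filled. The fill of the Spic point for SA is no support, since Spic was listed with results known.

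Against vehicle at 5 h, SA raised 4 of the 8 genes and lowered 1, where 3.33% of all genes passed (1.94% rose, 1.39% fell). LPS raised 2 and lowered 2, where 22.4% passed (9.22% rose, 13.2% fell). OA moved 0 by limma, where 0.0702% passed (0.0201% rose, 0.0502% fell), and 1 member, Hmox1, had an unadjusted p under 0.05. SA stood above LPS in 4 and below in 1, where 22.1% passed (13% above, 9.11% below). From 5 h to 20 h, 2 rose and 3 fell under SA, where 12.8% passed (6.23% rose, 6.57% fell). Under OA 2 rose and 0 fell, where 4.38% passed (2.58% rose, 1.8% fell), and 4 members had an unadjusted p under 0.05. Against the 5 h vehicle, 4 rose and 1 fell with 20 h SA, where 15.9% passed (7.86% rose, 8.02% fell), and 1 rose and 2 fell with 20 h OA, where 4.7% passed (2.59% rose, 2.11% fell). The SA minus OA difference of 4 of 8 genes was lower at 20 h than at 5 h, where 4.98% of all genes passed (1.58% higher, 3.4% lower). These comparisons share arrays, so their counts are not independent.

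**Figure D3:**
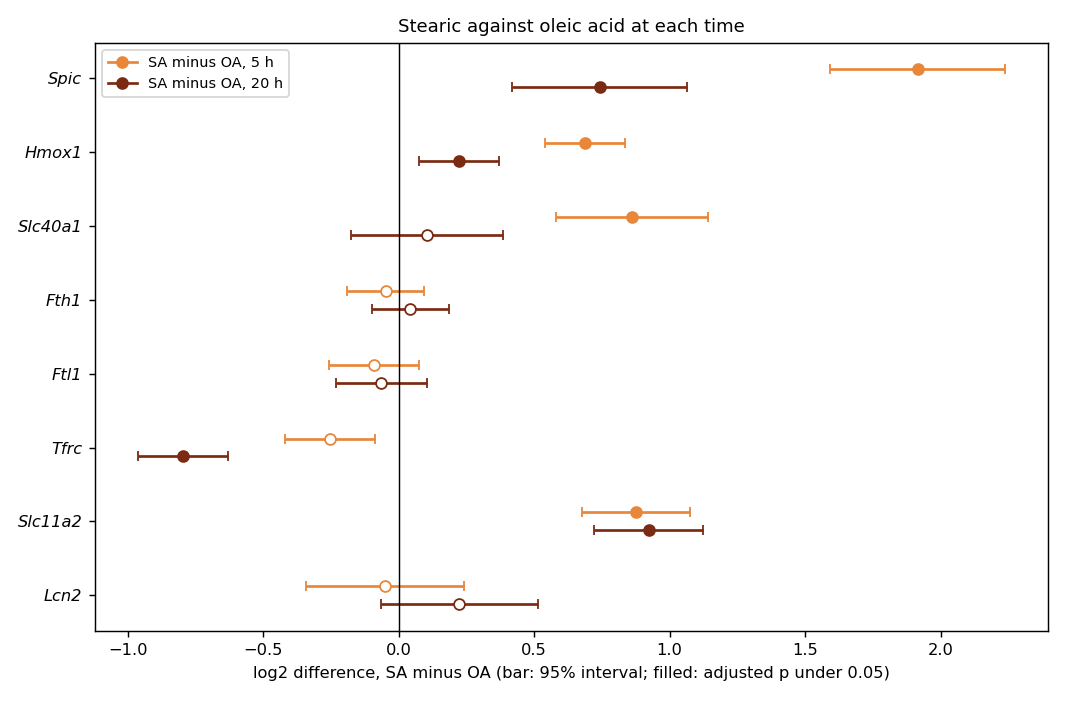
Log2 difference SA minus OA at 5 h and at 20 h for each gene, with the 95% interval as the bar and filled points for limma adjusted p under 0.05. The Spic, Hmox1 and Slc40a1 differences are smaller at 20 h, that of Tfrc is larger in size, and the Slc11a2 intervals overlap. The fill of the Spic point at 5 h is no support, since Spic was listed with results known.

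The members did not move as 1 unit. Over the 28 pairs of genes, Pearson r across the 23 arrays ran from -0.54 (Tfrc and Lcn2) to 0.86 (Spic and Hmox1). Between deviations from the group means, r was -0.17 for Tfrc and Lcn2 and 0.22 for Spic and Hmox1. The arrays share 6 groups, so these are descriptions of levels and carry no p. Of the 1883 other genes with group means that span at least 1, the 6 most like Spic were Gadd45b (r = 0.93), Ralgds (0.91), Cpeb4 (0.91), Irf1 (0.91), Htr2a (0.90) and Plpp3 (0.89). Gadd45b, a stress-inducible gene, was also near Hmox1 (0.89), after Rcan1 (0.92). The next was Spic itself (0.86).

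The genes nearest Slc11a2 were Gclc (0.94), which makes glutathione, Srxn1 (0.93), which repairs peroxiredoxins, and Asns (0.93), which makes asparagine. Nearest to Tfrc were Stap1 (0.97), Ccnd1 (0.96), a cyclin of the cell cycle, and Dcstamp (0.96). For Slc40a1 they were Osbpl8 (0.96), Cd28 (0.96) and Rell1 (0.96), and for Lcn2 Wfdc21 (0.96), Homer1 (0.93) and Zc2hc1a (0.92). Fth1 and Ftl1, whose levels hardly varied, reached at most 0.55 (Retnlg) and 0.70 (Zfp971).

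**Figure D4:**
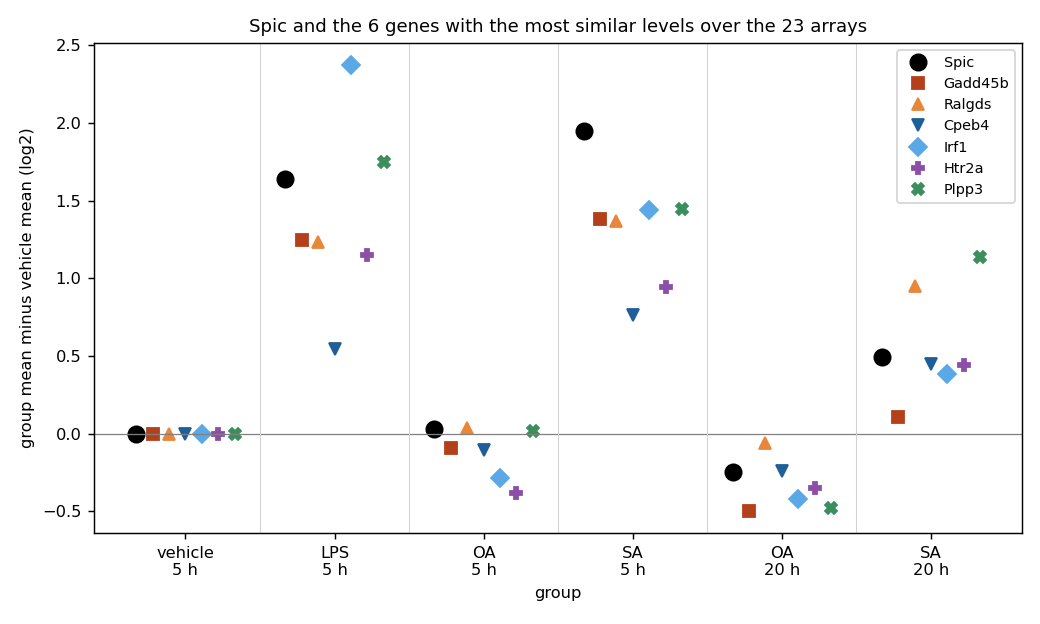
Mean of Spic and of the 6 genes with the highest Pearson r to it in each group, as the log2 difference from the vehicle mean. All 7 lie above vehicle with LPS and SA at 5 h, and Irf1 goes highest with LPS while Spic goes highest with SA.

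The 10 lists of other iron genes held 79 genes, of which 75 were measured. For SA against OA, 5 rose and 4 fell at 5 h, and 11 rose and 13 fell at 20 h (13 and 13 without replicate 2 of 20 h SA). For LPS against vehicle 15 rose and 11 fell. The larger counts stand beside larger shares of all genes called, 5.67% and 16.7% for SA against OA at 5 h and 20 h and 22.4% for LPS. Their medians were 0.00, 0.02 and -0.05, beside 0.01, 0.03 and -0.02 over all genes.

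Among uptake genes, Trf, transferrin itself, was -1.43 under SA at 20 h (limma adjusted p = 6.62e-11) and Hfe, a partner of the transferrin receptor, was -1.30 (limma adjusted p = 6.42e-11) and -0.61 at 5 h (limma adjusted p = 5.77e-05). LPS raised Slc39a14, an importer of non-transferrin iron, by 2.21 (limma adjusted p = 3.31e-13) and changed the ferrireductase Steap3 by -0.61 (limma adjusted p = 2.52e-05). Of the haem uptake list, the haem-haemopexin receptor Lrp1 was -0.46 at 5 h and -0.94 at 20 h of SA and -0.99 with LPS. The haemoglobin receptor Cd163 was -0.61 at 20 h, but its means of 2.70 (SA) and 3.31 (OA) lay under the 4.25 median of tested genes. In the synthesis and transport list, the exporter Abcg2 was -1.15 and Cpox, a haem synthesis enzyme, 0.59 at 20 h, while LPS changed the haem exporter Flvcr1 by -1.70 and Alad by -0.47.

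With LPS, ceruloplasmin (Cp), which oxidises iron for export, rose by 4.31 and hepcidin (Hamp) by 1.91, the same arrays on which the exporter Slc40a1 fell. The iron export and hepcidin list of 6 genes leaves out Slc40a1. That exporter was 0.86 higher under SA than OA at 5 h (limma adjusted p = 0.000129). SA and OA differed in 0 of the 6 listed genes at both times by limma, with 1 at an unadjusted p under 0.05 at 5 h and 0 at 20 h. LPS also moved Fbxl5 (0.45), which senses iron, Glrx3 (-0.36), Hscb (-1.11), which serves cluster assembly, Hp, haptoglobin, by 1.11, and Ltf by 0.51. The mitochondrial iron importer Slc25a37 rose in all 3 comparisons, by 0.49 and 0.39 with SA over OA and 1.41 with LPS.

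Of the 8 regulators of the BACH1 and NRF2 system, which control Hmox1 and the ferritin genes, 3 rose and 0 fell under SA at 5 h and 4 rose and 0 fell at 20 h (limma; 3 and 5 at an unadjusted p under 0.05). Over all genes 3.3% rose and 2.37% fell at 5 h, and 7.72% and 8.95% at 20 h. The small Maf protein gene Maff was 0.76 and 0.87 higher, Mafk 0.45 higher at 5 h and Mafg 0.48 higher at 20 h. LPS raised 4, Maff by 1.42 and Keap1 by 0.80 among them, and 2 fell. Of 9 red pulp macrophage and SPI genes, 1 rose and 2 fell at 5 h and 0 rose and 4 fell at 20 h (1 and 4 without replicate 2 of 20 h SA), beside the shares of all genes given above. Mertk, which clears dead cells, was -0.82 and -0.90, Axl -0.97 at 20 h, and Vcam1 0.55 at 5 h. With LPS, 3 of these rose, Vcam1 by 3.98 and Axl by 0.55 among them. Mertk is also 1 of the macrophage markers.

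**Figure D5:**
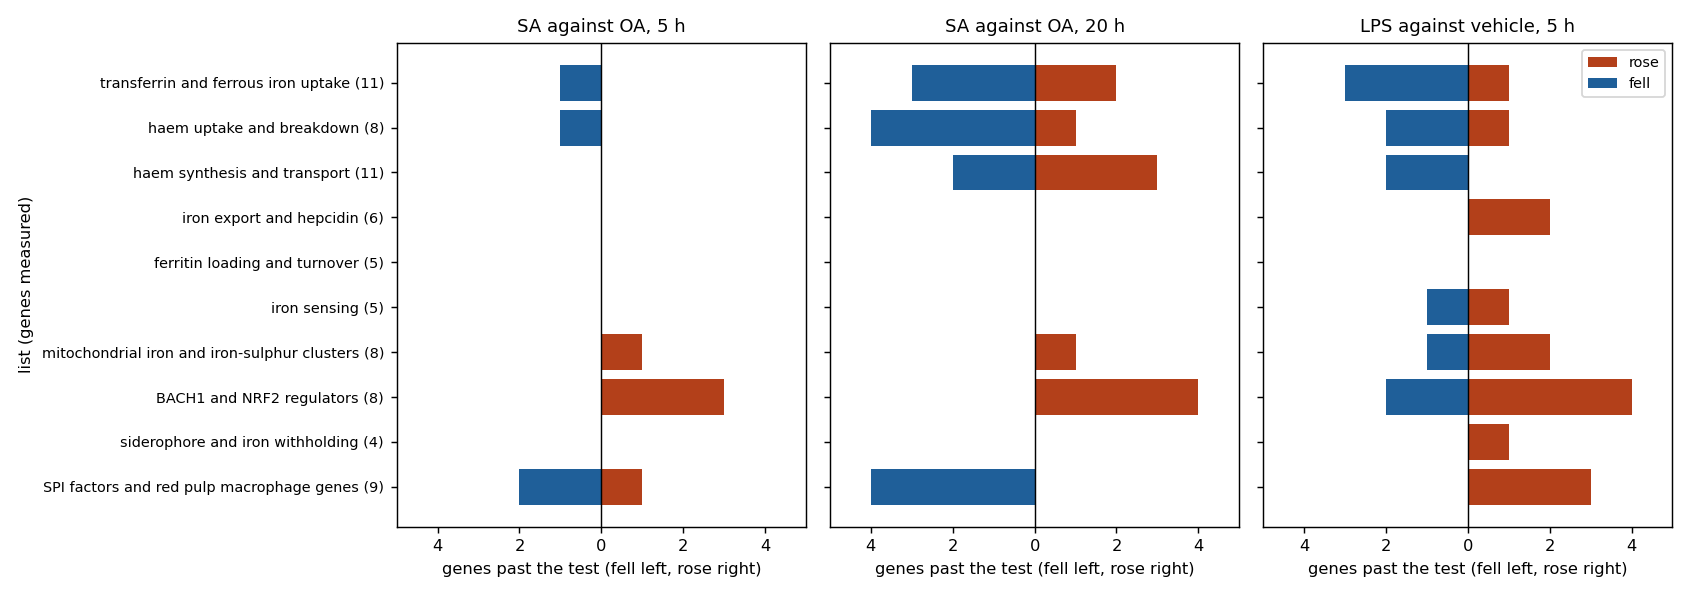
Number of genes in each list of other iron genes that fell (left) and rose (right) past limma adjusted p under 0.05, for SA against OA at 5 h and 20 h and for LPS against vehicle. Of the 8 BACH1 and NRF2 regulators, 3 rose at 5 h and 4 at 20 h under SA and 0 fell, and with LPS 4 rose and 2 fell. Counts for uptake and haem lists are larger at 20 h than at 5 h, as is the share of all genes called (16.7% against 5.67%).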

How the data were processed

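Per the submitters' processing notes, the authors made the deposited log2 values, 1 column an array, with RMA, which corrects background, equalises distributions and summarises probes. limma is named there too, without its role. Versions and the genome build are not given in the sources used here. Values ran from 0.380 to 12.9 and array medians from 3.98 to 4.12. Arrays give no depth, so their number limits the precision. Of 35556 probe sets, 21789 had 1 symbol, 1621 several and 12146 were not in the probe table. The probe set of highest mean was taken where a gene had more than 1 (999 genes).

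A model with 6 group means was fitted to 19938 genes with limma 3.58.1 in R 4.3.3 (lmFit, eBayes, two-sided, Benjamini-Hochberg over all genes, adjusted p under 0.05), over 11 comparisons. On simulated data, 53.7% of changes of 0.5 and 98.5% of changes of 1 were recovered for SA against OA at 5 h among 19938 genes. Of the 173 calls there, 2.89% were false. For LPS against vehicle 47.8% and 97% were recovered, and 3.55% of 169 calls were false. The noise was drawn independently for each gene, and fewer genes were changed than were called in these 2 comparisons of the data, so recovery there may differ.

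The members, lists and motifs were chosen with earlier results of these data known. Named were all members, up to 2 called genes of largest change in each list for SA against OA at each time and LPS against vehicle, the 6 genes most like Spic and the 3 most like each other member. Counting the lists without replicate 2 of 20 h SA was an alternative chosen after seeing the data; the closing section gives the effect of the others (variance trend, centring, quantile normalisation, array weights, dim genes left out, other probe set choices, compared arrays alone, replicate block, each array left out). Plots used Python 3.11.15 with matplotlib 3.10.9.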

Additional observations from a re-analysis of the deposited data

Results flagged for a closer look

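Replicate 1 of 20 h OA read 5.12 for Spic, against 4.52 to 4.59 on the other 3 arrays of its group. Without it, Spic under SA stood 0.88 above OA at 20 h. Replicate 4 of 5 h OA read 7.09 for Slc11a2, against 6.85 to 6.89 on the others. These were the 2 samples far from their group among 40 sets of 4 arrays tested (8 genes in 5 groups), and chance gives about 1 in 20.

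The SA minus OA difference changed between 5 h and 20 h by a test of that change itself (limma interaction). It moved by -1.17 for Spic, whose value is a description since the gene was listed with results known, by -0.47 for Hmox1 (0.00443), by -0.76 for Slc40a1 (0.0167) and by -0.54 for Tfrc (0.00301). For Spic, Hmox1 and Slc40a1 the positive difference became smaller, and for Tfrc the negative one became larger in size.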

How the results depend on the processing

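No called difference of a single gene changed sign. Of 792 values under other settings, 766 kept their side of the threshold, 10 lost the call and 16 gained one, and of 728 values without 1 array, 701, 25 and 2 did. Among the 766 and 701, 6 and 18 differences that were not called changed sign. The count of members called moved from 3 to 5 with array quality weights for 20 h OA against vehicle. Without 1 array it ran from 3 to 5 for 5 h SA against vehicle (5 with all arrays, 3 without vehicle replicate 1) and from 1 to 3 for OA at 20 h against 5 h (2 with all arrays, 1 without 5 h OA replicate 3). Over all genes, calls for SA against OA at 5 h were 1131, and 660 with the compared arrays alone. For 5 h SA against vehicle they were 664, and 373 with those arrays alone and 389 without vehicle replicate 2. For 5 h OA against vehicle they were 14, 29 with a variance trend and 7 with the compared arrays alone, and 7 to 16 without 1 array (9 and 7 without vehicle replicates 2 and 3). For 20 h OA against vehicle they were 937, and 1537 with array quality weights. Same-numbered arrays of different groups deviated together (r over 0.1) in 7 of 55 pairs, with r from -0.12 to 0.20. A count over all groups cannot settle whether the numbers pair the samples of some groups. Between 20 h OA and 20 h SA, the same-numbered arrays gave r of 0.11, 0.20, 0.03 and 0.11. With the replicate block, SA against LPS had 4 members called in place of 5 and OA at 20 h against 5 h 3 in place of 2, and SA against OA at 5 h had 4 members and 1095 genes.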
